A study of Homo sapiens with 12 samples.

Results

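The zinc finger genes of human chromosome 19 were described in a pair of melanoma cell lines, MALME-3M and SK-MEL-5. Members were the gene symbols starting with ZNF or ZFP that lie on chromosome 19 (GENCODE 29, GRCh38) and that reached a mean of at least 5 CPM, a gene's counts scaled to the library total in the usual way, over the 6 libraries of either line. This gave 122 members among the 44700 genes of the tables, out of 258 symbols of the family on chromosome 19 at any level. All 122 are annotated as protein-coding and all were among the 15810 genes tested. Because the threshold was read from the line means, the difference between the lines is given below as a description, without a test. Treatment effects were not used to choose members and were tested.

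Total RNA was sequenced from 4 groups of 3 libraries: MALME-3M treated with interferon gamma (IFN-γ) at 200 ng/mL for 24 h, untreated MALME-3M, SK-MEL-5 treated at 150 ng/mL for 24 h, and untreated SK-MEL-5. IFN-γ is the cytokine that activated T cells and natural killer cells release. Both lines are labelled as melanoma and as wild type, both were established from metastases, and each comparison between them sets 1 line against 1 other. MALME-3M was grown in Iscove's medium and SK-MEL-5 in Eagle's minimum essential medium with a smaller share of serum, so line, medium and IFN-γ dose cannot be told apart. Wells were seeded in triplicate and nothing says that they came from separate experiments, so p-values reflect how far these libraries vary, and part of that may be technical.

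Most of these genes encode proteins with an array of C2H2 zinc fingers that contacts DNA, and many carry a KRAB domain at the other end. The KRAB domain binds the scaffold protein TRIM28, which brings in the histone methyltransferase SETDB1 and HP1 proteins and so represses the bound site, often a transposable element. The genes arose largely by tandem duplication and still sit next to one another in clusters along the chromosome, which makes neighbouring members alike in sequence and position.

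Promoter windows of 5 members are shown because the largest line differences below concern them or their neighbours. Each window runs from 250 bases before to 50 bases after the RefSeq start (GRCh38.p14), is written 5′ to 3′ on the strand of the gene, and has every CG dinucleotide in capitals. ZNF529 (chr19:36605208-36605507, minus strand) and ZNF382 (chr19:36605063-36605362, plus strand) lie head to head and their windows share 155 bases. Both had almost no counts in MALME-3M, and so had ZNF813 (chr19:53467483-53467782, plus strand). ZNF439 (chr19:11848476-11848775, plus strand) had almost none in SK-MEL-5. ZNF146 (chr19:36214856-36215155, plus strand) lies in the same gene cluster as ZNF529 and ZNF382 and was the most abundant member per kb in both lines.
ZNF529: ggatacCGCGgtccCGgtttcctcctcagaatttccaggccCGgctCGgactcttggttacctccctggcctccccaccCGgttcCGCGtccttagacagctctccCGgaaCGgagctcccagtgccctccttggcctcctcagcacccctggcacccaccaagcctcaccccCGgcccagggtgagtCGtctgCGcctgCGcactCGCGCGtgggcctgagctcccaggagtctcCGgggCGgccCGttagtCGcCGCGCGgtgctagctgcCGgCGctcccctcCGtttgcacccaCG
ZNF382: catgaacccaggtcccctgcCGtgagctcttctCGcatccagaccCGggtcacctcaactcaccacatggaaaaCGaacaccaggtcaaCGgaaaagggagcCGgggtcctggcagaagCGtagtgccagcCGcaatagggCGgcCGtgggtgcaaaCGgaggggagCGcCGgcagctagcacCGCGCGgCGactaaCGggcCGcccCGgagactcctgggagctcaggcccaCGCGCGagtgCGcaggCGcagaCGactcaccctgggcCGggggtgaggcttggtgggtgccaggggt
ZNF813: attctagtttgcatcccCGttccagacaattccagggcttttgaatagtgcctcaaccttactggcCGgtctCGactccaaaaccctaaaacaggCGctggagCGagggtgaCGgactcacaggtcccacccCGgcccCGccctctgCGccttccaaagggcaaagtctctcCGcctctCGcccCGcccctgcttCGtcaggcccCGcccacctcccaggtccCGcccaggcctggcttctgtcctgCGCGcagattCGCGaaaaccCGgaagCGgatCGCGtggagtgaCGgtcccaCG
ZNF439: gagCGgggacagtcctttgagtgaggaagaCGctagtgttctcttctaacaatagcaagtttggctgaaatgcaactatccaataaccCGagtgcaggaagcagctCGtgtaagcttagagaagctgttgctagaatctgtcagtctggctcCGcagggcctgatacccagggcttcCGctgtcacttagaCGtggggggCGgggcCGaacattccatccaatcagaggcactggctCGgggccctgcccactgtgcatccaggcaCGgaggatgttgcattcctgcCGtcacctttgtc
ZNF146: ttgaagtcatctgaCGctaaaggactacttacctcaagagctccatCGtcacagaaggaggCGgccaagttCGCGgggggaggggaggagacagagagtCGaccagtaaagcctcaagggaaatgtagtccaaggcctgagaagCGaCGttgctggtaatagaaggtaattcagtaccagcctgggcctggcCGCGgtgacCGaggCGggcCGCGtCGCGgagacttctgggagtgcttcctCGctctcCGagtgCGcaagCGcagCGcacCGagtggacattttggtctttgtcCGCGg

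The windows held 28 CG dinucleotides at ZNF529, 27 at ZNF382, 25 at ZNF813, 12 at ZNF439 and 24 at ZNF146. Of the 122 members, 109 had a window in the RefSeq table, with a median of 21 CG, and 96.0% of all 35116 windows of the table held at least 1. The median over all windows was 14, with quartiles of 4 and 28. RefSeq and GENCODE starts were within 1000 bases of each other for 87 of the 109 members, and farther apart for the other 22. A CG match describes these letters and says nothing of their methylation, which was not measured.

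In both lines the lineage markers PMEL, MLANA, MITF and SOX10 were abundant, and the summed level of 8 melanocyte markers was 5840 to 6310 CPM in MALME-3M libraries and 5740 to 6430 CPM in SK-MEL-5 libraries. Single markers of that list differed between the lines in both directions. TYRP1, a melanosome enzyme, had 4.62 to 7.29 CPM in MALME-3M and 458 to 520 CPM in SK-MEL-5, DCT had 611 to 985 CPM in MALME-3M and 2110 to 2490 CPM in SK-MEL-5, and S100B had 622 to 769 CPM in MALME-3M and 127 to 173 CPM in SK-MEL-5. Of 5 fibroblast markers, LUM, which encodes a matrix proteoglycan, moved with the line (7.72 to 14.5 CPM in MALME-3M and 122 to 178 CPM in SK-MEL-5), and brought the list to 11.7 to 16.2 CPM in MALME-3M and 123 to 179 CPM in SK-MEL-5. The defining fibroblast genes COL3A1 and PDGFRA stayed at or below 0.152 CPM in every library, and COL1A1 at or below 1.17 CPM. COL1A2 lay the other way to LUM, with 1.30 to 4.85 CPM in MALME-3M and 0 to 0.147 CPM in SK-MEL-5. Summed leukocyte markers were 0.0521 to 0.361 CPM in MALME-3M, where PTPRC had 0 counts, and 0.608 to 1.37 CPM in SK-MEL-5. The part of these markers in the line differences was not tested. Gene counts totalled 15514412 to 22921184 per library, so that 3 counts over the 6 libraries of a line correspond to 0.0266 CPM in MALME-3M and 0.0267 CPM in SK-MEL-5.

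The largest line differences were those of members with almost no counts in MALME-3M, which had entered the set through SK-MEL-5 alone. Of the 122 members, 78 reached 5 CPM in both lines, 36 in SK-MEL-5 alone and 8 in MALME-3M alone. A member was described as lower or higher in MALME-3M where the CPM ranges of the 6 libraries of each line did not overlap and the means lay at least 2-fold apart. By this description 39 members were lower and 7 higher in MALME-3M, beside 14.4% lower and 14.7% higher among all genes tested, and 76 were neither. Of the 39 lower members 8 had reached the threshold in both lines, as had 3 of the 7 higher ones. The others entered only through the line in which they are high, which fixed the direction of their difference, so nothing is read from these counts.

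The median log2 fold change (MALME-3M over SK-MEL-5) was -0.44 over the members and -0.0034 over all genes tested. For genes chosen by the same threshold, the median was -0.087 over 497 other genes of chromosome 19 and 0.067 over 197 ZNF and ZFP genes of other chromosomes. Lower levels in MALME-3M, by the 2-fold description, were found for 32.0% of the members, for 6.84% of the other chromosome 19 genes and for 14.2% of the ZNF and ZFP genes elsewhere. Higher levels were found for 5.74%, 11.5% and 11.7% of these sets. Among all 11222 genes of at least 5 CPM in a line, 12.1% were lower and 12.4% higher. A mean below 1 CPM in MALME-3M, a level chosen after values were seen, was found for 24 members (19.7%). It was found for 3.22% of the other chromosome 19 genes, 4.06% of the ZNF and ZFP genes elsewhere and 3.48% of all genes of at least 5 CPM. Only 1 member, ZNF439, had a mean below 1 CPM in SK-MEL-5. These shares are descriptions of sets that the threshold chose, and their differences were not tested.

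**Figure D1:**
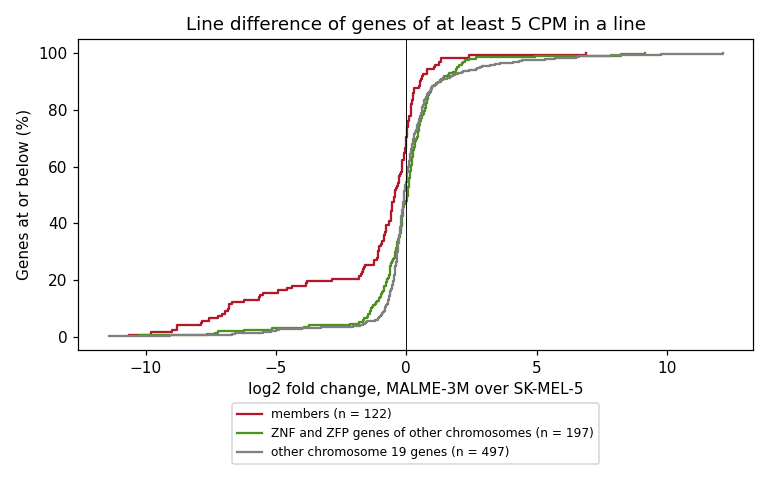
Cumulative share of genes (y axis, %) at or below each log2 fold change of MALME-3M over SK-MEL-5 (x axis), for the 122 members, 197 ZNF and ZFP genes of other chromosomes and 497 other chromosome 19 genes, all of at least 5 CPM in a line. The curve of the members has a long left arm below -2, with 25 of the 122 members in it, and its median is -0.44.

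Summed over all members, a library held 1500 to 1596 CPM in MALME-3M and 2159 to 2294 CPM in SK-MEL-5. The 39 lower members accounted for 96.1 to 106 CPM of this in MALME-3M and 544 to 590 CPM in SK-MEL-5. The remaining members summed to 1401 to 1490 CPM in MALME-3M and 1615 to 1704 CPM in SK-MEL-5. Neither the totals nor the sums of the remaining members overlapped between the lines. The sums of the 39 lower members could not overlap, since each was chosen for ranges that lie apart. They are also part of the totals. In bulk RNA, fewer cells expressing a gene and less RNA per cell cannot be told apart.

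The lowest fold changes belonged to genes with 0 or a few counts in all 6 MALME-3M libraries together. ZFP30 (chr19:37613749-37692337), a KRAB protein that in mouse takes part in adipocyte differentiation, had 0 counts in MALME-3M and 9.38 to 12.5 CPM with a median of 10.5 CPM in SK-MEL-5. Against the floor of 3 counts over the 6 libraries, it was at least 398.2-fold lower in MALME-3M. ZNF569 (chr19:37411155-37469275) also had 0 counts in MALME-3M, and 5.23 to 6.81 CPM with a median of 5.85 CPM in SK-MEL-5, at least 219.5-fold lower in MALME-3M. No SK-MEL-5 library of either gene came near the floor.

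Single counts were found for a further pair. ZNF570 (chr19:37467585-37488652) had 1 count over the MALME-3M libraries, against 5.58 to 7.88 CPM with a median of 6.77 CPM in SK-MEL-5, where the ratio of SK-MEL-5 to MALME-3M was 761.9 (95% Clopper-Pearson interval 136.3 to 30130, counting error only). ZNF382 (chr19:36604817-36634113), a KRAB repressor described as a tumour suppressor in carcinomas, had 1 count in MALME-3M and 4.89 to 6.44 CPM with a median of 5.26 CPM in SK-MEL-5. Its ratio of SK-MEL-5 to MALME-3M was 622.4 (interval 111.3 to 24620). From transcript estimated counts the difference of ZNF382 was much smaller, -2.45 on the log2 scale. Its means there were 0.572 CPM in MALME-3M and 3.26 CPM in SK-MEL-5. ZNF570 was at -8.88 from the same counts. The fitted log2 fold changes of genes with so few counts depend on the prior count of the fit. They serve here only to list the members, and ratios of pooled counts can order them otherwise.

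The next 8 members had 4 to 14 counts over the 6 MALME-3M libraries. ZNF567 (chr19:36687612-36727701) had 0 to 0.180 CPM with a median of 0 in MALME-3M, and 10.4 to 14.8 CPM with a median of 11.7 CPM in SK-MEL-5. ZNF529 (chr19:36534774-36605276) had 0 to 0.120 CPM with a median of 0.0459 CPM in MALME-3M, and 10.8 to 13.4 CPM with a median of 11.6 CPM in SK-MEL-5. Their fitted log2 fold changes were -8.81 ± 0.31 and -7.87 ± 0.23 (SE), from 6 and 5 MALME-3M counts. The ratio of SK-MEL-5 to MALME-3M from pooled counts was 223.7 for ZNF567 and 266.2 for ZNF529, which is the other order.

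ZNF331 (chr19:53519527-53580269), an imprinted gene that is rearranged in thyroid adenomas, was the highest of this group in SK-MEL-5. It had 0 to 0.328 CPM with a median of 0.0749 CPM in MALME-3M, and 20.2 to 25.6 CPM with a median of 23.6 CPM in SK-MEL-5 (-7.59 ± 0.23). ZNF813 (chr19:53467735-53496255), its neighbour, had 0.0601 to 0.181 CPM with a median of 0.119 CPM in MALME-3M, and 14.6 to 17.2 CPM with a median of 16.4 CPM in SK-MEL-5 (-6.96 ± 0.16). ZNF347 (chr19:53124072-53159075) had 0 to 0.422 CPM with a median of 0.0449 CPM in MALME-3M, and 9.26 to 13.3 CPM with a median of 12.2 CPM in SK-MEL-5 (-6.85 ± 0.31). These 3 genes lie within the same cluster on the distal long arm, and for none did the ranges of the lines overlap. The fitted values of ZNF331 and ZNF347 moved by far more than their SE when single untreated MALME-3M libraries were left out.

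ZNF43 (chr19:21804949-21852125) had 0 to 0.0937 CPM with a median of 0.0525 CPM in MALME-3M, and 7.56 to 11.6 CPM with a median of 10.4 CPM in SK-MEL-5 (-7.84 ± 0.26). ZNF470 (chr19:56567511-56588911) had 0 to 0.156 CPM with a median of 0.0903 CPM in MALME-3M, and 10.4 to 15.3 CPM with a median of 12.9 CPM in SK-MEL-5 (-7.22 ± 0.26). ZNF71 (chr19:56595264-56626481), next to ZNF470, had 0 to 0.121 CPM with a median of 0.0234 CPM in MALME-3M, and 4.41 to 6.90 CPM with a median of 5.91 CPM in SK-MEL-5 (-7.07 ± 0.32). Each of the 12 members lowest in MALME-3M had entered the set through SK-MEL-5 alone.

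**Figure D2:**
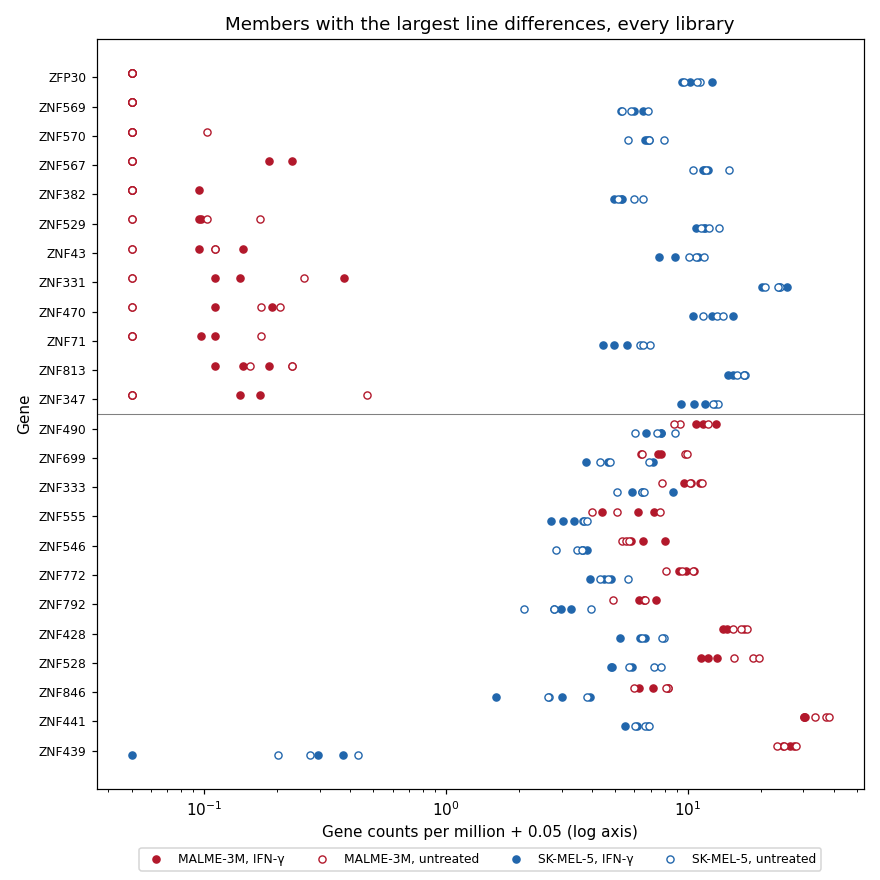
CPM plus 0.05 (x axis, log scale) in each library for the 12 members with the lowest and the 12 with the highest log2 fold change of MALME-3M over SK-MEL-5 (y axis), with filled points for IFN-γ and open points for untreated libraries. Above the grey line every MALME-3M point lies at or below 0.422 CPM before the addition and every SK-MEL-5 point at or above 4.41 CPM. Below it only ZNF439 shows a gap of that size, in the other direction.

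The 25 members lowest in MALME-3M reached from ZFP30 to ZNF253 (-2.83 ± 0.16), all at least 4-fold lower, and ZNF91 followed at -1.82 ± 0.069. ZNF91, the protein of which represses SVA retrotransposons in human cells, had 9.60 to 12.3 CPM with a median of 10.5 CPM in MALME-3M and 34.3 to 44.2 CPM with a median of 37.4 CPM in SK-MEL-5. Its levels did not overlap between the lines, and it passed the threshold in both.

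Within the lowest 25, several members were well above the threshold in SK-MEL-5. ZNF114 (chr19:48270102-48287608) had 0.721 to 1.51 CPM with a median of 1.24 CPM in MALME-3M, and 47.7 to 58.0 CPM with a median of 54.7 CPM in SK-MEL-5 (-5.48 ± 0.11). ZNF536 (chr19:30228290-30713538), a repressor of neuronal differentiation, had 0.361 to 0.901 CPM with a median of 0.701 CPM in MALME-3M, and 26.9 to 36.2 CPM with a median of 30.3 CPM in SK-MEL-5 (-5.60 ± 0.11). ZNF558, which controls a mitophagy gene in human neural cells, had 0.538 to 1.03 CPM with a median of 0.923 CPM in MALME-3M and 11.2 to 13.2 CPM with a median of 12.5 CPM in SK-MEL-5 (-3.82 ± 0.13). For these 3 genes 73 to 133 counts were found over the MALME-3M libraries, so their lower level there was measured and not at the floor.

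Among members with a described role, the differences were of all sizes. ZNF420, a regulator of p53, had 6 counts in MALME-3M and a median of 6.34 CPM in SK-MEL-5. ZNF675, which binds and inhibits TRAF6 signalling, had a median of 5.15 CPM in MALME-3M and 14.8 CPM in SK-MEL-5 (-1.60 ± 0.11). ZNF808, needed for human pancreas development, had a median of 13.0 CPM in MALME-3M and 31.0 CPM in SK-MEL-5 (-1.22 ± 0.071). All 3 were in the lower set.

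ZNF274, which binds the 3′ ends of zinc finger genes and recruits SETDB1 there, had 12.6 to 15.1 CPM in MALME-3M and 9.73 to 12.3 CPM in SK-MEL-5 (0.31 ± 0.078). ZNF473, part of the U7 particle that trims histone transcripts, had 9.32 to 11.9 CPM in MALME-3M and 13.7 to 19.8 CPM in SK-MEL-5 (-0.67 ± 0.094). ZNF224, a KRAB repressor of the aldolase A gene, had 18.4 to 23.1 CPM in MALME-3M and 26.6 to 37.3 CPM in SK-MEL-5 (-0.58 ± 0.061). The ranges did not overlap for these 3 genes either, but the means were less than 2-fold apart. ZNF649 had 9.32 to 13.2 CPM in MALME-3M and 9.12 to 12.8 CPM in SK-MEL-5, and its ranges overlapped.

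Members higher in MALME-3M were few, and 1 stood apart. ZNF439 (chr19:11848726-11883750) had 23.2 to 27.9 CPM with a median of 25.7 CPM in MALME-3M, and 0 to 0.382 CPM with a median of 0.234 CPM in SK-MEL-5, from 24 counts (6.88 ± 0.19). ZNF441 (chr19:11767000-11784078), in the same cluster, had 30.1 to 38.1 CPM with a median of 31.9 CPM in MALME-3M, and 5.44 to 6.86 CPM with a median of 6.37 CPM in SK-MEL-5 (2.39 ± 0.072). From transcript estimated counts the difference of ZNF439 was 2.60 on the log2 scale, with means of 37.0 CPM in MALME-3M and 6.11 CPM in SK-MEL-5. The direction was the same and the size was not.

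The other 5 higher members had log2 fold changes of 1.05 to 1.32. ZNF846 had 5.93 to 8.20 CPM in MALME-3M and 1.56 to 3.86 CPM in SK-MEL-5 (1.32 ± 0.17). ZNF528 had 11.3 to 19.6 CPM in MALME-3M and 4.74 to 7.66 CPM in SK-MEL-5 (1.31 ± 0.099). ZNF428 (1.24 ± 0.091), ZNF792 (1.11 ± 0.15) and ZNF772 (1.05 ± 0.11) completed the set. ZNF546, ZNF555, ZNF333, ZNF699 and ZNF490 followed at 0.80 to 0.55, less than 2-fold.

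Along the chromosome the 258 family symbols fell into 21 blocks, a gap of over 500 kb between neighbouring genes opening a new block. The lower members are counted by block below, beside 14.4% lower and 14.7% higher among all genes tested. Most of them entered through SK-MEL-5 alone, which fixed their direction, so these counts are descriptions and were not tested. Block 10 (chr19:36182060-37817300) held 12 members, of which 10 were lower and 9 were below 1 CPM in MALME-3M, with a median log2 fold change of -7.35. Block 6 (chr19:19668796-24129961), the last block of the short arm before the centromere, held 14 members, of which 9 were lower and 7 below 1 CPM in MALME-3M, with a median of -2.33. Block 19 (chr19:51571298-53580269), which had the most members, held 27, of which 9 were lower, 1 was higher and 3 were below 1 CPM in MALME-3M, with a median of -0.54.

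Other large blocks held few members of low level in MALME-3M. In block 21, the most distal, 3 of 17 members were lower and 1 higher, with a median of -0.012 and none below 1 CPM in either line. Block 14 had 1 lower and 1 higher of 12 members, and block 3 had 2 lower and 1 higher of 10. Block 4, which holds ZNF439 and ZNF441, had 1 lower and 2 higher of 8. Block 20 had 2 lower of 6 members, the adjacent ZNF470 and ZNF71.

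**Figure D3:**
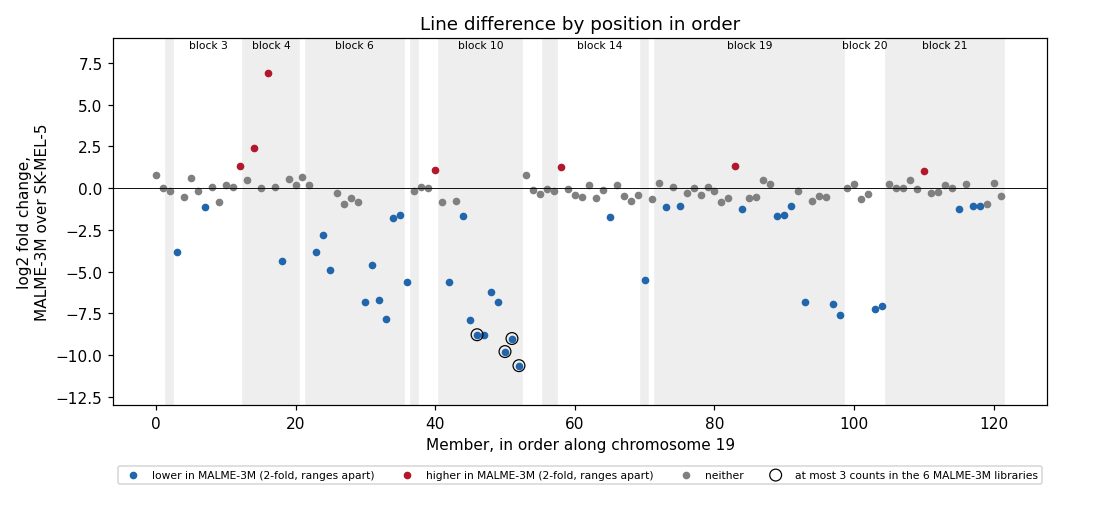
Log2 fold change of MALME-3M over SK-MEL-5 (y axis) for the 122 members in order along chromosome 19 (x axis, rank), with shading that alternates between blocks and open circles around the members with at most 3 counts over the MALME-3M libraries. Values below -4 gather in blocks 6 and 10 and at the distal ends of block 19 and block 20, with 1 more each in blocks 4, 7 and 17, while most members of blocks 14 and 21 lie near 0.

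Within block 10 the low level in MALME-3M ran over neighbouring genes, members or not. From ZNF529 to ZNF573 (chr19:36534774-37817300, 1283 kb, limits chosen after values were seen) the family had 27 symbols, 8 of them members. In MALME-3M 26 of the 27 had a mean below 1 CPM and 10 had 0 counts in all 6 libraries. In SK-MEL-5 18 of the 27 had a mean of at least 1 CPM and 1, ZNF781, had 0 counts. Summed over the 27, the mean level was 1.85 CPM in MALME-3M and 112 CPM in SK-MEL-5.

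ZNF383 was the exception, with a mean of 1.03 CPM in MALME-3M and 4.55 CPM in SK-MEL-5, and the highest of the others in MALME-3M was ZNF850 at 0.256 CPM. ZNF568, which in mouse represses a placental form of the growth factor gene Igf2, had 0 counts in MALME-3M and 2.15 to 4.20 CPM in SK-MEL-5. HKR1 (chr19:37312837-37369365), a KRAB zinc finger gene with another kind of symbol that lies in this stretch, had 0.0897 to 0.965 CPM with a median of 0.393 CPM in MALME-3M, and 15.6 to 18.2 CPM with a median of 17.8 CPM in SK-MEL-5.

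Proximal to the stretch the same block held genes with counts in both lines. ZNF146, a protein made almost wholly of zinc fingers that is abundant in some carcinomas, had 86.1 to 112 CPM with a median of 100.5 CPM in MALME-3M, and 162.8 to 195.2 CPM with a median of 177 CPM in SK-MEL-5 (-0.85 ± 0.038). ZNF260, a cofactor of GATA4 in rodent heart, had 7.40 to 10.0 CPM in MALME-3M and 22.7 to 31.6 CPM in SK-MEL-5 (-1.67 ± 0.082). ZNF566 had 3.37 to 6.04 CPM in MALME-3M and 5.58 to 9.57 CPM in SK-MEL-5, and its ranges overlapped. ZFP82, between ZNF146 and ZNF566, had 0 to 0.240 CPM in MALME-3M and 4.01 to 6.62 CPM in SK-MEL-5.

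**Figure D4:**
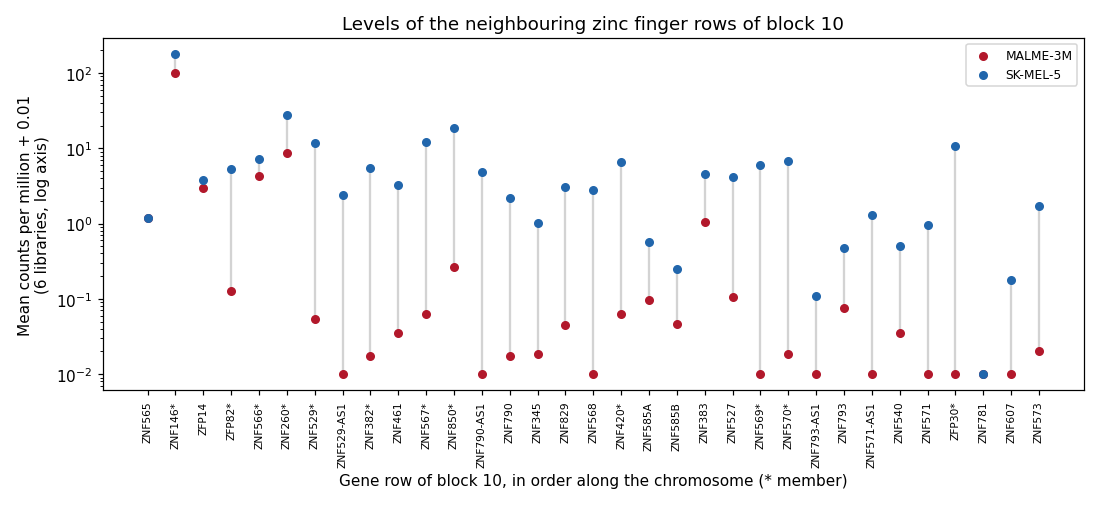
Mean CPM plus 0.01 over 6 libraries (y axis, log scale) in MALME-3M and SK-MEL-5 for the 33 family symbols of block 10 in order along the chromosome (x axis, an asterisk marks members), joined by a grey line for each gene. From ZNF529 to ZNF573 all MALME-3M means but that of ZNF383 lie below 1 CPM, while ZNF146, ZNF566 and ZNF260 have counts in both lines.

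Several of these genes overlap or face each other. The 5′ ends of ZNF529 and ZNF382 lie 459 bases apart on opposite strands, and ZNF567 overlaps ZNF850. ZNF569 and ZNF570 also overlap at their 5′ ends, and both were at the floor in MALME-3M. The strand setting of the counting is not given in the sources used here, so reads of overlapping genes cannot be told apart. Of the 122 members 11 have the 5′ end of another gene within 1000 bases on the opposite strand. They are 5 of the 39 lower, 1 of the 7 higher and 5 of the 76 other members. The 5′ ends of ZNF569 and ZNF570 lie farther apart than that, so this pair is not in the count.

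The 136 family symbols under the threshold were described in the same way. Of these, 67 had means below 1 CPM in both lines, 27 in MALME-3M alone, 6 in SK-MEL-5 alone, and 36 had at least 1 CPM in both. ZNF93, which represses LINE-1 elements in human cells, had 0.180 to 0.364 CPM in MALME-3M and 1.63 to 2.25 CPM in SK-MEL-5. ZNF471 had 1 count in MALME-3M and 2.91 to 4.23 CPM in SK-MEL-5. By the 2-fold description 41 of the 136 were lower and 7 higher in MALME-3M, beside 14.4% lower and 14.7% higher among all genes tested. Of the 136, only 90 were among the genes tested, and the others had few counts, so the shares have unlike bases. Over the 212 family symbols that were tested, members included, 35.8% were lower and 6.60% higher.

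The nearest values on each side of the threshold, as means of counts over library totals, were close. Just inside it lay ZNF57 (5.13 CPM in MALME-3M and 4.99 CPM in SK-MEL-5), ZNF737 (0.175 CPM in MALME-3M and 5.20 CPM in SK-MEL-5) and ZFP82 (0.117 CPM in MALME-3M and 5.24 CPM in SK-MEL-5). Just outside it lay the antisense symbol ZNF790-AS1 (0 counts in MALME-3M and 4.82 CPM in SK-MEL-5), ZNF30 (4.33 CPM in MALME-3M and 4.78 CPM in SK-MEL-5) and ZNF77 (4.76 CPM in MALME-3M and 3.10 CPM in SK-MEL-5).

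Set per kb of exon, ZNF146, ZNF460, ZNF761 and ZNF121 were among the 5 most abundant members in both lines. In MALME-3M the highest levels were those of ZNF146 (24.1 CPM per kb), ZNF460 (14.0), ZNF761 (11.3), ZNF121 (9.99) and ZNF428 (8.74 CPM per kb). In SK-MEL-5 they were those of ZNF146 (43.1 CPM per kb), ZNF114 (17.8), ZNF121 (17.7), ZNF761 (16.3) and ZNF460 (14.1 CPM per kb). ZNF114, second in SK-MEL-5, had 0.396 CPM per kb in MALME-3M.

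Features of the proteins and promoters were counted for the lower, the higher and the other members. In coding sequences translated from GENCODE 29, the C2H2 pattern was found a median of 12 times per member, from 0 in ZNF738 to 31 in ZNF91. The median was 12 in the 39 lower members, 11 in the 7 higher ones and 12.5 in the 76 others. A KRAB A box pattern was found in 34 of the 39 lower, 6 of the 7 higher and 60 of the 76 other members. The pattern may still miss KRAB boxes, so these are counts of matches and not of proteins with the domain. The median number of CG dinucleotides in the promoter window was 20 in 33 lower members, 22 in 7 higher ones and 22 in 69 others, and the median GC share was 59.0%, 59.3% and 61.3%. No test was made, since the line difference that forms these sets was used by the rule.

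Sequence shared among the genes limits some levels. Runs of 100 bases that also occur in transcripts of another symbol made up a median of 0% of a member, with 78 members at 0 and 4 above 50%. These 4 were ZNF320 (71.6%), the readthrough symbol ZNF559-ZNF177 (68.8%), ZNF490 (59.3%) and ZNF468 (52.0%). The lower members ZNF417 (25.9%), ZNF587B (16.9%) and ZNF808 (13.2%) also shared over 10%. The levels of these 7 are uncertain, since reads of shared sequence could be dropped or assigned to another gene. ZFP30 shared 3.0% and ZNF439 0.404%, and ZNF331, ZNF43, ZNF441 and ZNF91 shared none.

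The transcript estimated counts, summed to genes, gave the same direction for 103 of the 118 members they covered. ZFP30, ZNF567, ZNF579 and ZNF600 were not covered. Whether they had no estimated counts or too few for the low-count filter of that fit was not examined. The levels of ZFP30 and ZNF567 in either line were therefore not checked in this way. Of 37 lower members covered, 32 were also lower, and of 7 higher members 4 were also higher, by the same description. Of 22 covered members below 1 CPM in MALME-3M, 19 were below 1 CPM there as well. The exceptions were ZNF253 (1.43 CPM), ZNF493 (1.36 CPM) and ZNF558 (1.07 CPM). ZNF761, described as neither by gene counts, turned direction and was higher in MALME-3M by transcript sums (10.5 CPM in MALME-3M and 2.38 CPM in SK-MEL-5, 2.14 on the log2 scale against -0.53 from gene counts). ZNF865 was at 4.20 from transcript sums, with means of 1.41 CPM in MALME-3M and 0.196 CPM in SK-MEL-5, and at 0.24 from gene counts.

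Genes of the repression pathway itself, which the rule did not use, were expressed in both lines. Of 21 KRAB co-repressor and heterochromatin genes, 4 were higher and 14 lower in MALME-3M (edgeR adjusted p under 0.05), with a median of -0.21. Among all genes tested, 39.1% were higher and 40.4% lower, 79.5% in all, with a median of -0.0034. TRIM28 had 151 to 172 CPM in MALME-3M and 219 to 255 CPM in SK-MEL-5 (-0.53 ± 0.037, edgeR adjusted p = 1.07e-10). SETDB1 had 25.0 to 32.4 CPM in MALME-3M and 41.8 to 50.2 CPM in SK-MEL-5 (-0.60 ± 0.064, edgeR adjusted p = 6.19e-08). The ranges of the lines did not overlap for either gene.

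CHD3, a remodeller of the NuRD complex, was lower in MALME-3M (-1.10 ± 0.033, edgeR adjusted p = 2.28e-16), and CHD4, its paralog in that complex, was higher (0.58 ± 0.040, edgeR adjusted p = 9.61e-11). MPHOSPH8, a subunit of the HUSH silencing complex, was lower (-0.53 ± 0.036, edgeR adjusted p = 5.71e-11), while MORC2, which works with that complex, was higher (0.65 ± 0.058, edgeR adjusted p = 4.88e-09). CBX5 and DAXX were the other higher genes of the list (0.32 ± 0.031 and 0.10 ± 0.043), and CBX1, CBX3, FAM208A, PPHLN1, HDAC1, HDAC2, ATRX, SUV39H1, SUV39H2 and EHMT1 were lower, at -0.16 to -0.41. ATF7IP, EHMT2 and SMARCAD1 did not pass the test.

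Of 7 DNA methylation genes 2 were higher and 3 lower in MALME-3M, with a median of -0.034. DNMT1, the maintenance methyltransferase, had 318 to 342 CPM in MALME-3M and 374 to 401 CPM in SK-MEL-5 (-0.21 ± 0.029, edgeR adjusted p = 1.86e-06). UHRF1, which guides it to replicated DNA, had 115 to 154 CPM in MALME-3M and 77.8 to 94.8 CPM in SK-MEL-5 (0.59 ± 0.055, edgeR adjusted p = 7.34e-09). DNMT3A was higher (0.17 ± 0.044), and DNMT3B (-0.33 ± 0.12) and TET3 (-0.81 ± 0.069) were lower. TET1 and TET2 did not pass the test. The counts of both lists were the same with DESeq2 size factors. From transcript estimated counts the co-repressor list had 4 higher and 13 lower, with a median of -0.25, and the DNA methylation list had 1 higher and 3 lower, with a median of -0.27.

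Few members were called after IFN-γ in either line. IRF1, a transcription factor induced by interferons, averaged 253 ± 31 CPM in treated and 2.94 ± 0.56 CPM in untreated MALME-3M, and 204 ± 2.1 CPM in treated and 5.05 ± 0.77 CPM in untreated SK-MEL-5 (SD, n = 3 each), a log2 change of 6.43 ± 0.12 in MALME-3M and 5.35 ± 0.11 in SK-MEL-5. In MALME-3M 2 members rose and 3 fell (edgeR quasi-likelihood test, Benjamini-Hochberg adjusted p under 0.05 over all genes tested), beside 9.51% higher and 8.77% lower among all genes tested. In SK-MEL-5 0 members rose and 2 fell, beside 5.98% higher and 7.05% lower. At an unadjusted p under 0.05 there were 16 members in MALME-3M and 14 in SK-MEL-5, and DESeq2 also called 0 members higher in SK-MEL-5. The shares of members called were below those of all genes in both lines, and that difference was not tested. The shares of all genes cover every level of expression, and none was computed for genes at the level of the members. In MALME-3M 24 members had a mean below 1 CPM, where a call is hard to reach.

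ZNF841 (chr19:52064466-52095765) had the largest rise among the members called in MALME-3M. It had 40.6, 44.1 and 44.3 CPM in treated and 32.5, 29.7 and 29.1 CPM in untreated MALME-3M (0.50 ± 0.080, edgeR adjusted p = 0.00015), and every treated library was above every untreated one. ZNF865 (chr19:55605405-55617269) had 17.8, 18.2 and 17.7 CPM in treated and 13.5, 13.4 and 14.1 CPM in untreated MALME-3M (0.39 ± 0.096, edgeR adjusted p = 0.0074), also without overlap. In SK-MEL-5 the values were 36.5 ± 3.0 CPM in treated and 31.5 ± 2.7 CPM in untreated cells for ZNF841, and 13.9 ± 1.3 CPM in treated and 12.6 ± 0.29 CPM in untreated cells for ZNF865 (SD, n = 3 each), neither past the threshold. ZNF865 was not called in MALME-3M from transcript estimated counts (edgeR adjusted p = 0.872).

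ZNF146 fell in MALME-3M, with 87.4, 92.3 and 86.1 CPM in treated and 109, 112 and 112 CPM in untreated libraries (-0.32 ± 0.054, edgeR adjusted p = 0.000244). ZNF528 had 12.02, 13.2 and 11.3 CPM in treated and 15.4, 18.5 and 19.6 CPM in untreated MALME-3M (-0.55 ± 0.13, edgeR adjusted p = 0.00541). ZNF551 had 5.29, 7.02 and 5.61 CPM in treated and 9.38, 8.26 and 7.91 CPM in untreated MALME-3M (-0.50 ± 0.13, edgeR adjusted p = 0.0117). No treated library of these 3 genes overlapped the untreated ones. ZNF551 was not called without untreated MALME-3M replicate 1 (edgeR adjusted p = 0.0602) or from transcript estimated counts (edgeR adjusted p = 0.845).

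In SK-MEL-5 ZNF808 fell, with 28.5, 27.0 and 26.0 CPM in treated and 37.8, 33.5 and 36.1 CPM in untreated libraries (-0.40 ± 0.096, edgeR adjusted p = 0.00856). ZNF507 had 57.9, 61.8 and 63.2 CPM in treated and 68.8, 67.3 and 70.5 CPM in untreated SK-MEL-5 (-0.18 ± 0.054, edgeR adjusted p = 0.0369). Neither gene overlapped between treatments in SK-MEL-5. In MALME-3M ZNF808 had 12.7 ± 0.56 CPM in treated and 14.0 ± 2.1 CPM in untreated cells, and ZNF507 had 57.9 ± 3.2 CPM in treated and 57.9 ± 0.53 CPM in untreated cells (SD, n = 3 each). The call of ZNF507 was lost without any of 7 single libraries (edgeR adjusted p 0.0635 to 0.162), namely each untreated one of SK-MEL-5, treated replicates 1 and 2 of SK-MEL-5, and treated replicates 1 and 3 of MALME-3M, which share the fit. It was also lost with DESeq2 (adjusted p = 0.0544). ZNF808 was not called from transcript estimated counts (edgeR adjusted p = 0.244).

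**Figure D5:**
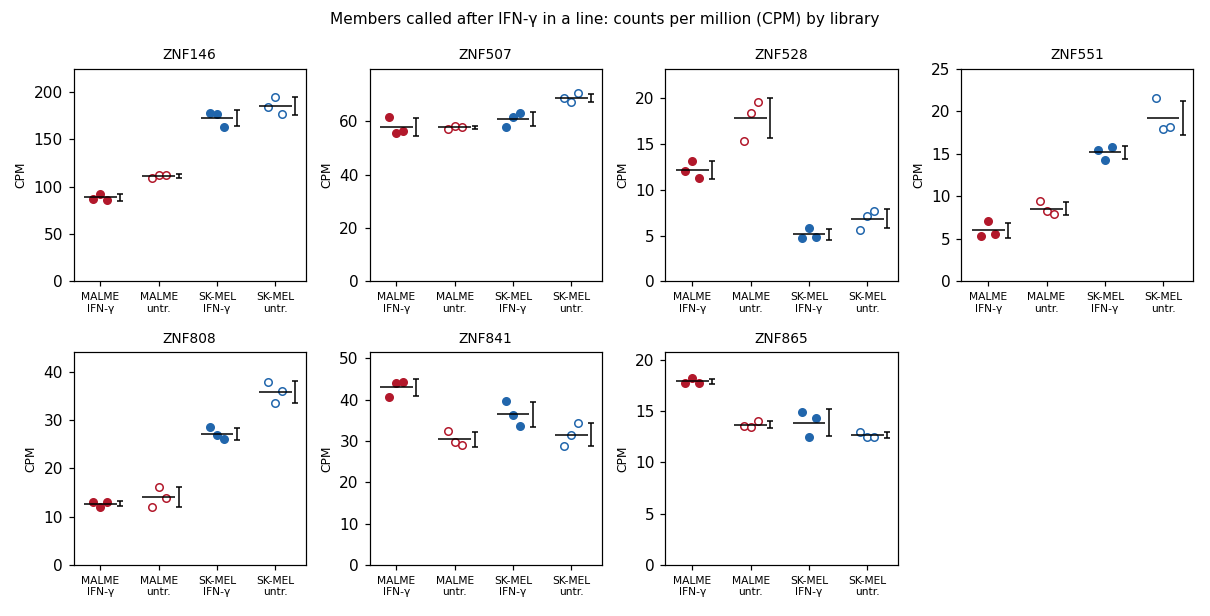
CPM (y axis, from 0) of the 7 members called after IFN-γ in a line, for treated and untreated MALME-3M and treated and untreated SK-MEL-5 (x axis), with points for the 3 libraries, a line for the mean and a bar for the SD beside it. ZNF841 and ZNF865 lie higher in treated MALME-3M, ZNF146, ZNF528 and ZNF551 lower there, and ZNF808 and ZNF507 lower in treated SK-MEL-5.

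By edgeR 0 members were called for a larger or smaller IFN-γ effect in MALME-3M than in SK-MEL-5, where 2.67% of all genes tested were called higher and 1.79% lower, 4.46% in all (smallest adjusted p among the members 0.122, and 9 members at an unadjusted p under 0.05). DESeq2 called 1, ZNF146, whose change in MALME-3M minus that in SK-MEL-5 was -0.24 (adjusted p = 0.0399). A member called in 1 line and not in the other is therefore not shown to differ between them. Over the members, the median log2 change after IFN-γ was -0.021 in MALME-3M and -0.049 in SK-MEL-5, beside 0.00074 and -0.027 over all genes tested.

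For the members with 0 or a few counts over the MALME-3M libraries, the test could not show a response in that line. The largest fitted change of a member there was 4.0, of ZNF567 (edgeR adjusted p = 0.0681), and rested on 6 counts in all. By the 2-fold description, 37 members were lower and 7 higher in MALME-3M among treated libraries alone, and 39 lower and 6 higher among untreated libraries alone. The share over all genes was not computed for these smaller sets of libraries, so nothing is read from the counts. Of the 21 co-repressor and heterochromatin genes, 2 rose and 4 fell after IFN-γ in MALME-3M, beside 9.51% and 8.77% of all genes tested, and 2 rose and 2 fell in SK-MEL-5, beside 5.98% and 7.05%. MORC2 rose in both lines, by 0.32 ± 0.081 in MALME-3M (edgeR adjusted p = 0.0095) and 0.29 ± 0.084 in SK-MEL-5 (edgeR adjusted p = 0.0287), and CBX5, which encodes an HP1 protein, was lower after treatment in both (-0.23 ± 0.043, edgeR adjusted p = 0.000823, and -0.23 ± 0.044, edgeR adjusted p = 0.00111). HDAC1, a histone deacetylase, rose in both lines too (0.19 ± 0.057, edgeR adjusted p = 0.0256, in MALME-3M, and 0.40 ± 0.057, edgeR adjusted p = 5.04e-05, in SK-MEL-5). Of the 7 DNA methylation genes, DNMT3B rose in MALME-3M (0.54 ± 0.17, edgeR adjusted p = 0.0308) and had 0.44 ± 0.16 (edgeR adjusted p = 0.0844) in SK-MEL-5.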

How the data were processed

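Per the labels' protocols, total RNA was extracted with a column kit and libraries were made with the Pico V3 kit and sequenced in pairs of reads. The authors deposited whole-number read counts per gene symbol, not normalized, with HTSeq summary lines, and, per the file headers, kallisto tables with estimated counts and TPM per transcript. TPM was not used. Per the submitters' processing notes, the build was hg38 and the tools were HTSeq, STAR, kallisto, SAMtools and cutadapt, with no version for any. Neither the annotation nor the strand setting is stated in these sources. The 5 summary lines were left out, among them alignments to several places, 7.47 to 13.7 times as many as the gene counts.

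Counts were fitted in R 4.3.3 with edgeR 4.0.16 (filterByExpr with a minimum count of 10, TMM, quasi-likelihood, 1 mean per group over 12 libraries, a common biological coefficient of variation of 0.0955, 8 residual degrees of freedom) and checked on simulated counts. CPM printed are scaled by TMM, with factors of 0.981 to 1.02, while membership used plain library totals. SE is the log2 fold change over the square root of F and understates the error of genes with few counts. Intervals and floors cover counting error only. Transcript estimated counts were summed to genes and rounded. DESeq2 was version 1.42.0. Genes were placed by symbol with GENCODE 29. Fingers and KRAB boxes were counted in translated GENCODE 29 coding sequences in place of the RefSeq proteins planned, and the KRAB pattern was loosened after it had missed known members. Named members were the 12 lowest and 12 highest in line difference, all called after IFN-γ, the 5 highest per kb in each line, the 3 symbols on each side of the threshold and those with a textbook role. Other members and genes were named after their values were seen. Members and lists were chosen with earlier results of these data known. The replicate numbers follow accession order and serve as names.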

Additional observations from a re-analysis of the deposited data

Results flagged for a closer look

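Among the genes that checked the treatment, IRF1 and CIITA, the activator of MHC class II genes, had IFN-γ effects that differed between the lines. IRF1 changed by 1.08 ± 0.17 more on the log2 scale in MALME-3M than in SK-MEL-5 (edgeR adjusted p = 0.000541), and CIITA by 2.03 ± 0.24 more (edgeR adjusted p = 2e-05), with 200 ng/mL in MALME-3M and 150 ng/mL in SK-MEL-5. All 3 treated libraries were above all 3 untreated ones for both genes in each line. No chromosome 19 zinc finger member had such a difference by edgeR.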

How the results depend on the processing

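With means at least 4-fold apart, 25 members were lower and 2 higher in MALME-3M, and among the 82 members of at least 10 CPM in a line 22 were lower and 4 higher. Leaving out single libraries gave 36 to 41 lower and 7 to 7 higher. The share over all genes was not computed for these settings, so the counts show only how far the description of the members moves. For IFN-γ in MALME-3M, where 3 members fell, the fit of that line alone called 5 lower of 102 members, and leaving out single libraries gave 3 to 5 lower (5 without treated replicate 1) and 2 to 3 higher. For SK-MEL-5, where 2 fell and 0 rose, 1 fell with no low-count filter, 0 from transcript estimated counts, 1 with DESeq2 and 1 with the line alone, which also called 1 higher, and leaving out single libraries gave 1 to 2 lower and 0 to 1 higher (1 higher without treated SK-MEL-5 replicate 2 or untreated MALME-3M replicate 3). ZNF507 turned to 0.11 in SK-MEL-5 from transcript estimated counts (edgeR adjusted p = 0.694). The difference of the IFN-γ effects between the lines had 1 member lower with DESeq2, and leaving out single libraries gave 0 to 1 higher (ZNF567 at 4.65, adjusted p = 0.0457, without treated MALME-3M replicate 2) and 0 to 0 lower. The cause of these changes was not tested. Fitted line differences also moved. ZNF347 was at -9.05 without untreated MALME-3M replicate 2, ZNF331 at -9.40 without untreated MALME-3M replicate 3, and from transcript estimated counts ZNF382 was at -2.45, ZNF865 at 4.20 and ZNF761 at 2.14. DESeq2 size factors left all counts above within 1.5 times, and a gap of 250 kb gave 26 blocks in place of 21. Depth limits members with under 15 counts in a line, whose fold is uncertain. No paired analysis was possible because the labels give no replicate numbers.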
